A study of Mus musculus with 12 samples.

Results

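Peak lists of 8 mammary gland libraries were analysed, 4 for the progesterone receptor (PR) and 4 for estrogen receptor alpha (ERα). A total of 6637 distal regions carried a PR peak in every PR library and an ERα peak in every ERα library. They were found by merging the overlapping peaks (1 bp or more) of all 8 deposited lists into 321963 regions and keeping the autosomal ones that had a peak in each list and a midpoint more than 1 kb from the start and the end of every protein-coding gene (mm10). The choice therefore used the presence of a peak, and that presence is not a finding. The 6637 regions were 2.29% of the 289887 distal autosomal regions and 55.4% of the 11983 autosomal regions with a peak in all 8 libraries. The remaining 5346 of those 11983 lay within 1 kb of a coding gene's start or end and are called gene-end regions here.

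The libraries came from chromatin immunoprecipitation and sequencing of whole mammary glands, minced and fixed in formalin, of mice with the Y541S change in Esr1, the gene for ERα, or with wild-type (WT) Esr1. There were 8 libraries, 2 for each of 4 groups: Y541S glands with PR, WT glands with PR, Y541S glands with ERα and WT glands with ERα. All mice were raised to 8 weeks and implanted with E2 and P4 (estradiol and progesterone), and glands were taken 4 days later, so no group lacked hormone. The series title speaks of luminal cells, the labels of whole glands, and peak positions show neither the tissue, the cells nor the genotype that they came from. The labels call the replicates biological without saying how many animals each held, and 4 samples with a D542G change were not analysed here. The sources used here do not give the strain or the way in which the Y541S allele is driven.

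ERα and PR are ligand-activated transcription factors of the steroid receptor family that bind DNA as dimers, largely at enhancers far from promoters, where pioneer factors such as FOXA1 keep the chromatin open. In the mammary epithelium the 2 receptors are expressed largely in the same hormone-sensing luminal cells, PR is itself a classical product of estrogen signalling, and progesterone acts on neighbouring cells through secreted factors such as RANKL (Tnfsf11). Y541S is the mouse counterpart of a substitution in the ligand-binding domain that recurs in endocrine-resistant human breast tumours and lets ERα act without ligand.

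Sequence could be read for those distal regions that contain an annotated RefSeq start window, the 300 bases from 250 upstream to 50 downstream of a transcript start (GRCm38.p6, the assembly of mm10). Such a start can belong to a long noncoding RNA (lncRNA) or to a coding gene's start other than the end of its span. A window lay within 775 of the 6637 regions (11.7%), and in 70 of them a window held the summits of all 8 libraries. The 6 windows below were chosen from those 70, as the window with the best mean percentile for each of 6 motifs searched. They are shown because both receptors' summits can be placed on the same letters. Each is printed 5′ to 3′ on the strand of its transcript, with the motif match in capitals on either strand.
Gm34323: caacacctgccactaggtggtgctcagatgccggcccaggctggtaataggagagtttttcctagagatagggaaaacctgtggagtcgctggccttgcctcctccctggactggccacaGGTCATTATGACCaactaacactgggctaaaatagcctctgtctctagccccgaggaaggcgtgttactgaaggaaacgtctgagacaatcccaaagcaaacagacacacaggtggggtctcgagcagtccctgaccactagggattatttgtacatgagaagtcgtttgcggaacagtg
Gm16573: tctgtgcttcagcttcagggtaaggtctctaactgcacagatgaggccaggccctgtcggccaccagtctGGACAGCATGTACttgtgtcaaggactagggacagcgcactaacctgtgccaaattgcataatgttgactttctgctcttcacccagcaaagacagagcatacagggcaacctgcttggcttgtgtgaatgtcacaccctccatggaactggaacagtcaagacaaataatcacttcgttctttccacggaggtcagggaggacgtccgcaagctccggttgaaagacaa
9230116L04Rik: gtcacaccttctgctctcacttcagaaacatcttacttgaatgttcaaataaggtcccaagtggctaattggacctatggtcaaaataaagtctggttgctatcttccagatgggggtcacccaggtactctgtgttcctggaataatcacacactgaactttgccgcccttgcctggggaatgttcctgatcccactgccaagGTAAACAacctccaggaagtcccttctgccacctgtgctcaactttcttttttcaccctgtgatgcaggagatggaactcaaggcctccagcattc
4930543I11Rik: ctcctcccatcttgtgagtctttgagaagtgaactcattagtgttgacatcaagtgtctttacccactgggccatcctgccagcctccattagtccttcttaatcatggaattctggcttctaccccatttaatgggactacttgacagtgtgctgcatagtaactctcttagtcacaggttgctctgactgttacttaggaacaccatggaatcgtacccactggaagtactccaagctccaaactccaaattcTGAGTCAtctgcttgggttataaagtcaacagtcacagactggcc
Ift46: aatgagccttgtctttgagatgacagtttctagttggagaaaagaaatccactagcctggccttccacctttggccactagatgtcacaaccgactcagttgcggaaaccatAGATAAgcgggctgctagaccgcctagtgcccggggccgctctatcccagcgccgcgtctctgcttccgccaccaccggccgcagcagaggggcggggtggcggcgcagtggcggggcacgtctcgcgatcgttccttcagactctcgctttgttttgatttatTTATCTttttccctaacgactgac
Nabp2: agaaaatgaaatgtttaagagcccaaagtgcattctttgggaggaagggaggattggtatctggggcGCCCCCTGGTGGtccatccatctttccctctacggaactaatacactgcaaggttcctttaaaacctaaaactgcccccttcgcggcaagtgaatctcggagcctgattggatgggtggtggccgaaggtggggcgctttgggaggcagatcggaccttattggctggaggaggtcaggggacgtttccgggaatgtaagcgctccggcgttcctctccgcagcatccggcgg
The lncRNA Gm34323 window lies at chr9:120601620-120601919 on the plus strand, 27.2 kb from the ribosomal protein gene Rpl14, and its capitals mark the palindrome of the estrogen response element, centred 124 bases before the start (position -124). The 4 ERα summits lay at positions -96 and -121 in Y541S and -72 and -152 in WT glands, and the 4 PR summits at 8 and -37 in Y541S and 7 and 10 in WT glands, counted from the start. The ERα summits were therefore all closer to the element than the PR summits. The deposited fold enrichment (the ratio at the summit, whose reference the sources used here do not give) was 17.9 and 13.1 for PR in Y541S glands, 9.65 and 8.51 for PR in WT glands, 9.75 and 7.72 for ERα in Y541S glands and 7.06 and 7.37 for ERα in WT glands.

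The lncRNA Gm16573 window, at chr14:56620464-56620763 on the minus strand, lies inside Parp4, which encodes a poly(ADP-ribose) polymerase of the vault particle. Its capitals mark a progesterone and glucocorticoid response element centred at position -174. PR summits lay at -103 and -80 in Y541S and -81 and -85 in WT glands, and ERα summits at -67 and -5 in Y541S and -85 and -115 in WT glands. The summit closest to this element was thus an ERα summit, at -115, and the PR summits were not all closer than the ERα ones. The fold was 23.3 and 21.2 for PR in Y541S glands and 20.4 and 21.6 for PR in WT glands, against 10.2 and 3.68 for ERα in Y541S glands and 8.59 and 7.23 for ERα in WT glands. This region was ranked higher for PR than for ERα by the test described further on.

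The other 4 windows hold motifs of factors known to open or organise chromatin. The minus-strand lncRNA 9230116L04Rik window (chr12:79103890-79104189), 14.2 kb from Pigh, holds a FOXA match at position -43, whereas its summits lay between -117 and -51. The plus-strand lncRNA 4930543I11Rik window (chr10:67785493-67785792), 100 kb from Zfp365, holds an AP-1 match at position 8 with summits between -102 and 9. The start of Ift46, which encodes a subunit of the intraflagellar transport complex (chr9:44772759-44773058, plus strand), holds 2 GATA matches, and its summits lay between -126 and -47. The start of Nabp2, a single-stranded DNA binding protein gene (chr10:128409801-128410100, minus strand), holds a CTCF match at position -178 with summits between -193 and -21. The folds of the FOXA window's region spanned 11.6 to 18 in PR and 4.66 to 9.95 in ERα libraries, without overlap, whereas those of the Nabp2 region spanned 2.63 to 4.82 in PR and 4.01 to 5.28 in ERα libraries and overlapped. A match is a string of letters and no evidence of binding.

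Over all start windows in distal regions, matches to these motifs were few. The estrogen response element (half-sites GGTCA and TGACC with any 3 bases between them) was in 2 of the 956 windows (0.209%), against none of 5991 in gene-end regions and 0.0733% of all 31396 autosomal windows. The progesterone and glucocorticoid response element (half-sites GNACA and TGTNC with any 3 bases between them) was in 4 (0.418%), against 0.284% of gene-end windows and 0.487% of all. FOXA (TGTTTAC) was in 3.14% of the distal regions' windows, 2.29% of gene-end windows and 3.71% of all. AP-1 (TGANTCA) was in 7.22% of the distal regions' windows, 4.02% of gene-end windows and 7.84% of all. The motif of GATA factors (AGATAA) was in 6.49% of the distal regions' windows, 4.59% of gene-end windows and 11.2% of all. CTCF (CCA, any 2 bases, then AGGGGGC) was in 1.05% of the distal regions' windows, 0.684% of gene-end windows and 0.376% of all. Both strands were searched with no mismatch, and no motif's letters contain those of another. For the estrogen response element and CTCF the share in distal windows was above both other shares, and for the other 4 motifs it lay between them. These windows are all from the 11.7% of distal regions with an annotated start, and the sequence of the others was not read.

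The median width of the distal regions was 892 bases (middle 50% from 718 to 1124), against 1170 for gene-end regions and 263 for the 283250 distal regions with a peak in fewer than 8 lists, and a merged region of many peaks is wider by construction. The median distance to the closest gene start or end was 19.7 kb, against 25.1 kb for other distal regions, and 26.1% lay more than 50 kb away. A distance over 1 kb is set by the rule itself. The midpoint was inside a coding gene's span for 3296 (49.7%), against 61.9% of gene-end and 55.9% of other distal regions. Exons and introns were not separated. Among the distal regions, 59.8% held exactly 1 peak per library. The members closest to the limit were regions by BC005537 and Itga3, at 1.0 kb, inside it, and regions by Ecsit, at 1.0 kb, and Ttyh3, at 0.997 kb, outside it. The share with an annotated start window, 11.7%, compares with 1.11% in other distal regions and 79.8% in gene-end regions. Of the 775 regions with a window, 478 held coding starts, 248 lncRNA starts and 49 both.

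The requirement of a peak in every list fell unevenly on the libraries. The lists held 64488 to 113695 peaks, and peaks in distal 8-library regions made up 6.41% to 11.5% of them. Another 7056 distal regions had a peak in 7 of the 8 lists. The missing list was ERα in WT replicate 2, the shortest, for 3033 of these (43.0%) and PR in WT replicate 1 for 1456 (20.6%). It was ERα in Y541S replicate 2, with 105612 peaks, for 1011 (14.3%), ERα in WT replicate 1, with 72566 peaks, for 747 (10.6%), and the longest list, PR in Y541S replicate 1, for 71 (1.01%). A region outside the set can therefore hold signal below a library's threshold. The background coverage, recovered from the deposited fold and p of each peak, was 2.29 to 2.68 in the 4 libraries of replicate 1 and 0.927 to 1.72 in the 4 of replicate 2. It stands in for depth, which the lists do not give.

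The height of a peak was read as its percentile within its own list by −log10 p, with 100 the strongest, since heights were not normalised between libraries. The median distal region stood at percentile 82.7 and 83.0 for PR in Y541S glands, 79.7 and 82.5 for PR in WT glands, 89.9 and 87.1 for ERα in Y541S glands and 83.5 and 80.0 for ERα in WT glands (replicates 1 and 2, here and throughout). Gene-end regions stood at 68.3 and 81.8 for PR in Y541S glands, 64.4 and 79.5 for PR in WT glands, 90.3 and 93.4 for ERα in Y541S glands and 81.3 and 86.5 for ERα in WT glands. For PR, distal regions were thus the higher ones in 4 of 4 libraries, and for ERα in 1 of 4. The medians of the 8 libraries lay close together for distal regions and further apart for gene-end regions.

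**Figure D1:**
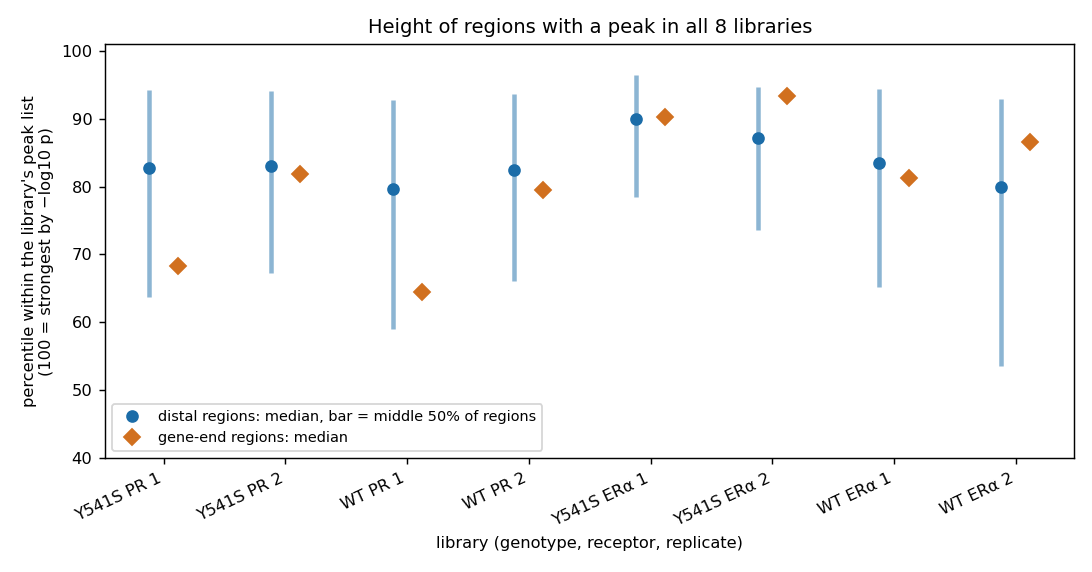
Height of the 6637 distal (blue circles, bars over the middle 50% of regions) and 5346 gene-end regions (orange diamonds), as the median percentile within each library's own peak list (y axis, 100 the strongest by −log10 p), for the 8 libraries. In the PR libraries the distal median lies above the gene-end median by 1.15 to 15.3 points, most in replicate 1. In the ERα libraries the gap runs between -6.51 and 2.25.

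The gap between distal and gene-end medians was 8.45 ± 7.43 percentile points in PR libraries and -2.75 ± 4.36 in ERα libraries (SD, n = 4 each). Over all 8 libraries it was 2.85 points, above 0 in 5 of 8, which a two-sided exact permutation test did not separate from 0 (p = 0.383). Over the 4 pairs of PR and ERα libraries with the same genotype and replicate number, the exact permutation p was 0.5, where the smallest possible is 0.125. With only the peaks of a −log10 p of at least 5 the gap was 6.09 points. It passed with the 8 libraries as separate units (two-sided exact permutation p = 0.0234), which the 4 pairs could not. Without PR in WT replicate 1 the gap was -0.448. The gap was 11.2 points larger in PR than in ERα libraries, short of the threshold (two-sided exact permutation p = 0.0571, where the smallest possible is 0.0286). Without PR in Y541S replicate 2 the difference was 12.9 points and passed (exact permutation p = 0.0286). It was 13.9 points within replicate 1 and 8.45 within replicate 2. The gap itself moved with the replicate number: it was 14.4 and 15.3 in the PR libraries and -0.446 and 2.25 in the ERα libraries of replicate 1 (Y541S, then WT), against 1.15 and 2.95 and -6.28 and -6.51 in those of replicate 2. Replicate 1 also had the higher background coverage in all 4 groups, and the part of depth in the gap was not tested.

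Between genotypes, the gap differed by -1.28 points (Y541S minus WT), not past the threshold (two-sided exact permutation within receptor, p = 0.667, smallest possible 0.0556). The difference was -1.33 in PR and -1.24 in ERα libraries. Its sign turned when single libraries were left out, to 2.0 without PR in Y541S replicate 2, 1.49 without PR in WT replicate 1, 0.356 without ERα in Y541S replicate 2 and 1.23 without ERα in WT replicate 1.

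The distal regions with an annotated start were compared with the other distal regions in the same way. In PR libraries they stood 9.75 ± 7.12 points below the other distal regions, and in ERα libraries 0.439 ± 4.69 points above them (SD, n = 4 each). The difference between receptors was -10.2 points (two-sided exact permutation p = 0.0857, smallest possible 0.0286), with -12.8 within replicate 1 and -7.63 within replicate 2, so it did not pass the threshold. The distal 8-library regions were also set against the distal regions with peaks for a single receptor in all 4 of its libraries, 7728 for PR and 1521 for ERα. In PR libraries the 8-library regions stood 7.26 points higher, in 4 of 4 libraries (two-sided exact permutation p = 0.125, the smallest possible). In ERα libraries the difference was 0.78 points, above 0 in 3 of 4 (exact permutation p = 0.875). The median 8-library region thus had the higher rank in each PR library, by 0.57 to 11.1 points, though 4 libraries cannot pass the threshold. In ERα of WT replicate 1 the difference was -7.48 points. Height was that of the strongest peak in a region, so a region with several peaks has more chances of a high one. The 8-library regions were also wider (median 892 bases, against 531 for PR only and 548 for ERα only). The part of width in these differences was not tested.

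Within the same distal regions, summits differed between libraries of the same receptor as well as between PR and ERα libraries. The strongest peak of each library was taken in each region, and its summit was compared between libraries. The median distance was 46.3 bases on average over the 6 pairs of PR libraries (38 to 55) and 68.3 over the 6 pairs of ERα libraries (53 to 80). Between a PR and an ERα library it was 77.6 over 16 pairs (61 to 96). Summits of different receptors lay 20.2 bases further apart than those of the same receptor (two-sided exact permutation p = 0.0286, the smallest that 35 splits can give), with 20.2 within replicate 1 and 20.2 within replicate 2. With the replicate number as a block the exact permutation p was 0.0556, the smallest possible there. The same-receptor mean, 57.3 bases, pooled the closer PR pairs with the wider ERα pairs. The PR-to-ERα range overlapped that of ERα pairs, whereas every PR pair was closer than every PR-to-ERα pair.

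Summits within 100 bases of each other made up 73.0% of regions for PR pairs, 62.0% for ERα pairs and 58.5% for PR-to-ERα pairs. For genotype, summits of different genotypes were 1.0 base closer than those of the same genotype, not past the threshold (difference -1.0, two-sided exact permutation p = 0.556, smallest possible 0.111). That sign turned to 3.17 without PR in WT replicate 1, 1.17 without PR in WT replicate 2 and 5.5 without ERα in WT replicate 1.

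The order of heights over the distal regions was shared within a receptor and barely between receptors. Spearman's rho of −log10 p over the 6637 regions was 0.769 to 0.854 for PR pairs, 0.53 to 0.751 for ERα pairs and between -0.0211 and 0.279 for PR-to-ERα pairs. Over the distal regions the means were 0.809 for PR pairs, 0.598 for ERα pairs and 0.155 for PR-to-ERα pairs, against 0.499, 0.433 and 0.273 over the gene-end regions. Gene-end regions thus had the smaller spread between these kinds of pairs. The rho values are across regions of the same libraries and describe them. Pairs of different genotypes had means of 0.807 for PR and 0.604 for ERα, against 0.812 and 0.586 for pairs of the same genotype.

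**Figure D2:**
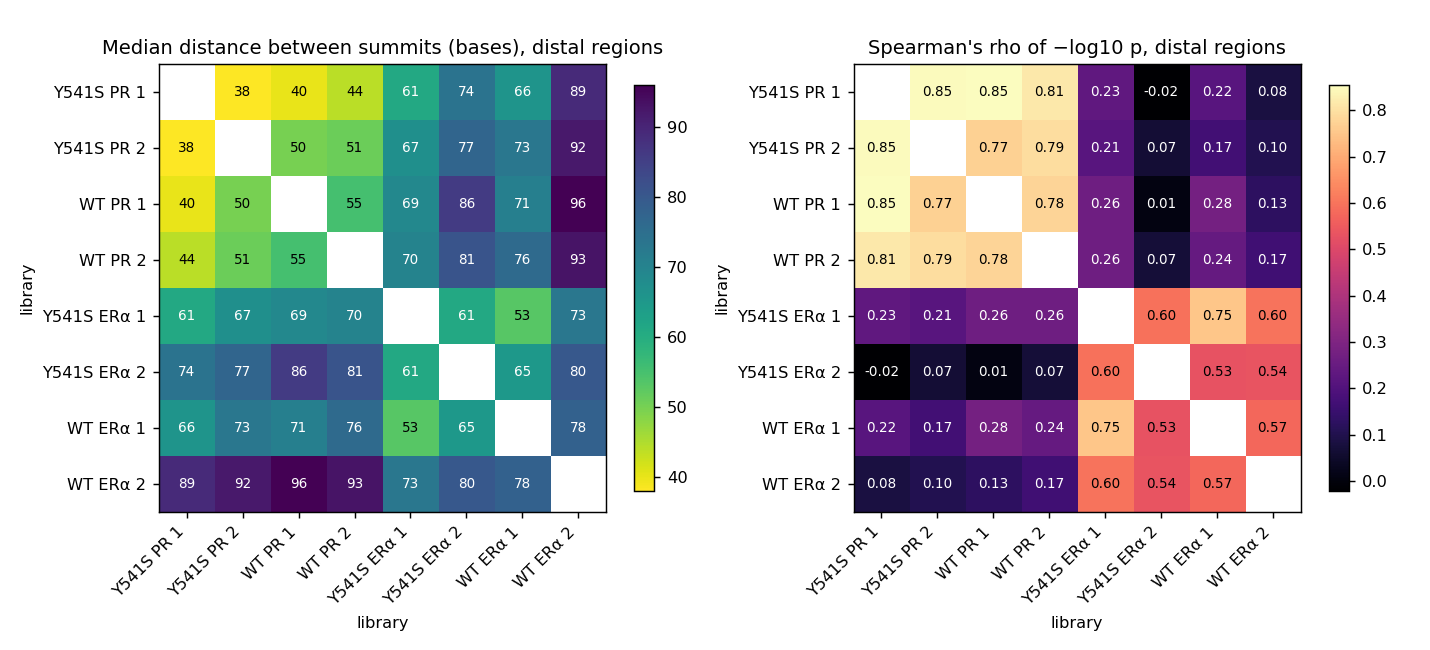
For each pair of the 8 libraries over the 6637 distal regions, the median distance between summits in bases (left) and Spearman's rho of −log10 p (right), with the value in each cell. PR pairs form the block of short distances (38 to 55) and high rho (0.769 to 0.854), and PR-to-ERα cells hold the lowest rho (-0.0211 to 0.279).

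Each region's rank within its library, among the 11983 autosomal 8-library regions, was turned into a normal score (the matching quantile of a standard normal distribution) and fitted with limma over the 4 groups. At a Benjamini-Hochberg adjusted p under 0.05 over all 11983 regions, 1560 of the 6637 distal regions were higher for PR (23.5%), where the background over all 8-library regions was 14.2%. ERα was higher in 817 (12.3%), with a background of 9.86%. Among gene-end regions the counts were 140 (2.62%) for PR and 365 (6.83%) for ERα. These sets are called PR-leaning and ERα-leaning. Distal regions therefore held 1560 of the 1700 PR-leaning calls. Distal and gene-end regions were ranked together, so a high rank of one kind lowers the other. The median difference in score (PR minus ERα) was 0.152 in distal and -0.295 in gene-end regions. The part of the gene-end ranks in these counts was not tested. The PR-leaning count was 1009 without PR in Y541S replicate 1, where the background share was not computed.

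**Figure D3:**
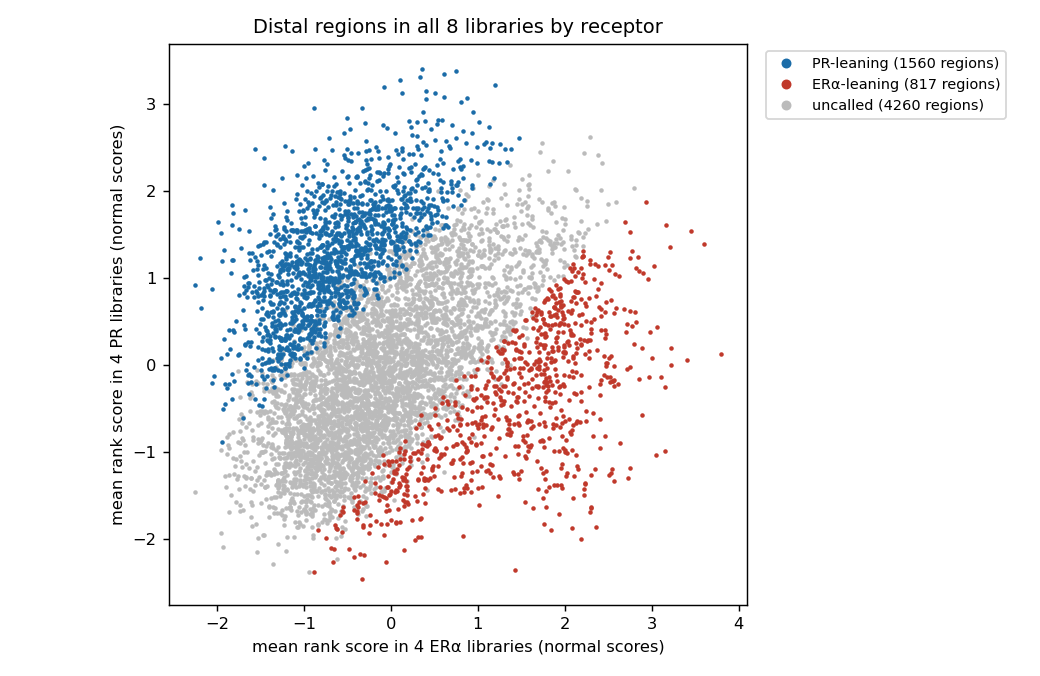
Mean normal score of each of the 6637 distal regions in the 4 ERα libraries (x axis) and the 4 PR libraries (y axis), coloured by the limma call at an adjusted p under 0.05. The 1560 PR-leaning regions (blue) lie in the upper left, the 817 ERα-leaning regions (red) in the lower right and the 4260 uncalled ones (grey) along the diagonal between them.

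Position and summits, which the call did not use, are described for the 3 sets with no test. PR-leaning regions lay 23.4 kb from a gene end and ERα-leaning ones 26.4 kb (medians), against 17.2 kb for the 4260 uncalled. Annotated start windows were in 4.1% of PR-leaning and 4.77% of ERα-leaning regions, against 15.8% of uncalled ones. The share inside a gene was 48.2% of PR-leaning, 46.8% of ERα-leaning and 50.8% of uncalled regions. Median summit distance between PR libraries was 25 bases in PR-leaning, 63 in ERα-leaning and 59 in uncalled regions. Between ERα libraries it was 83.5 bases in PR-leaning, 23 in ERα-leaning and 79 in uncalled regions. Each leaning set thus had its tight summits for the receptor it leaned to. Between a PR and an ERα library the distance was 61 bases in PR-leaning, 64.5 in ERα-leaning and 83 in uncalled regions. In PR-leaning regions this lay below the distance between ERα libraries and above that between PR libraries. In the other sets it lay above both. The peaks of the receptor that a set leaned to were also the higher ones. The part of height in these distances was not tested.

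The median deposited fold of the PR-leaning regions was 13.4 and 11.3 for PR in Y541S glands and 7.9 and 10 for PR in WT glands, against 4.47 and 3.9 for ERα in Y541S glands and 3.84 and 3.78 for ERα in WT glands. For the ERα-leaning regions it was 5.9 and 5.14 for PR in Y541S glands and 3.64 and 5.06 for PR in WT glands, against 11.7 and 9.15 for ERα in Y541S glands and 11.3 and 8.47 for ERα in WT glands. In each set the receptors did not overlap, in the same contrast that made the call. The uncalled regions had 3.97 to 6.88 in PR and 4.18 to 5.04 in ERα libraries. Folds are not scaled between libraries, so the calls rest on ranks.

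The strongest PR-leaning distal regions were chosen by their difference in score between receptors, so a wide separation follows from the choice. Each was ranked higher in every PR library than in any ERα library. The region with the largest difference lay at chr18:46650482-46651109, 40.6 kb from Eif1a, a translation initiation factor gene. It had folds of 21.1 and 20.9 for PR in Y541S glands and 15.8 and 19.3 for PR in WT glands, against 3.36 and 2.95 for ERα in Y541S glands and 2.56 and 4.53 for ERα in WT glands. Its difference was 4.04 ± 0.46 normal-score units (SE, limma adjusted p = 0.00044). The receptors did not overlap, and both genotypes gave the same order.

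The region at chr9:121794499-121795452, 2.47 kb from Hhatl, a relative of the hedgehog acyltransferase gene, had folds of 19.7 and 19.5 for PR in Y541S glands and 16.7 and 16.8 for PR in WT glands, against 5.52 and 4.42 for ERα in Y541S glands and 2.79 and 3.31 for ERα in WT glands. Among the 6637 regions it was ranked 7 and 41 for PR in Y541S glands and 13 and 29 for PR in WT glands, against 3080 and 4409 for ERα in Y541S glands and 6209 and 5734 for ERα in WT glands. It was thus a top PR region and a middling to weak ERα region. The other 3 lay inside Rnf217, a ubiquitin ligase gene, 109.0 kb from Tdrd3, a Tudor domain gene, and inside Carmil1, a regulator of actin capping, with differences of 3.83, 3.74 and 3.67. Their folds spanned 11.9 to 24.6 in PR libraries and 2.36 to 5.65 in ERα libraries.

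The strongest ERα-leaning distal regions, chosen by the same difference, showed the mirror image. The region with the largest difference lay at chr1:71895811-71896936, 243.0 kb from Fn1, the gene for the matrix protein fibronectin. It had folds of 2.95 and 3.16 for PR in Y541S glands and 2.5 and 3.97 for PR in WT glands, against 19.6 and 15 for ERα in Y541S glands and 18.9 and 11.6 for ERα in WT glands, and a difference of -4.22 ± 0.33 (SE, limma adjusted p = 0.000281). No PR fold reached the lowest ERα fold.

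The region at chr1:38241189-38242312, inside Aff3, which encodes a nuclear protein linked to transcription elongation, had folds of 6.16 and 3.76 for PR in Y541S glands and 3.53 and 4.7 for PR in WT glands, against 19.6 and 20.9 for ERα in Y541S glands and 15.4 and 20 for ERα in WT glands. It was ranked 5048 and 6399 for PR in Y541S glands and 5041 and 5317 for PR in WT glands, against 9 and 16 for ERα in Y541S glands and 3 and 23 for ERα in WT glands. It was thus among the 23 highest of these regions in each ERα library. The other 3 lay inside Map4, a microtubule-associated protein gene, 275.0 kb from Cryba4, a lens crystallin gene, and inside Prrx1, a homeobox gene of mesenchyme, with differences of -4.2, -4.08 and -4.04. Their folds spanned 2.68 to 5.7 in PR libraries and 14.9 to 24.7 in ERα libraries.

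The distal regions that were high for both receptors are described by their mean percentile over the 8 libraries, with no test, since height chose them. The highest lay at chr3:85579615-85580380, inside Gatb, a subunit of the mitochondrial glutamyl-tRNA amidotransferase. It had folds of 17.7 and 17.5 for PR in Y541S glands and 16.3 and 15.4 for PR in WT glands, against 20.6 and 17.3 for ERα in Y541S glands and 20.8 and 17.3 for ERα in WT glands. The ranges of the receptors overlapped only slightly, and the region was ranked between 41 and 151 of 6637 in every library. The next lay inside Nln (neurolysin, a peptidase), 154.0 kb from Arid1b (a subunit of the BAF chromatin remodeller), 261.0 kb from Gm10573, 176.0 kb from Irx2 (an Iroquois homeobox factor) and inside Clvs2 (clavesin 2).

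The seventh was at chr11:100854199-100854767, inside Stat5b, the transducer of prolactin and growth hormone signals. It had folds of 11.8 and 13.5 for PR in Y541S glands and 9.82 and 14.6 for PR in WT glands, against 12.6 and 10.9 for ERα in Y541S glands and 10.3 and 9.86 for ERα in WT glands. The ERα range lay within the PR range. The last 3 of the 10 lay inside Shpk (sedoheptulokinase), 55.6 kb from Eif3h (a subunit of translation initiation factor complex) and inside Lifr, the receptor of leukemia inhibitory factor. Among the 10, the lowest limma adjusted p for a difference between receptors was 0.0928, at Clvs2 (difference -0.76).

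**Figure D4:**
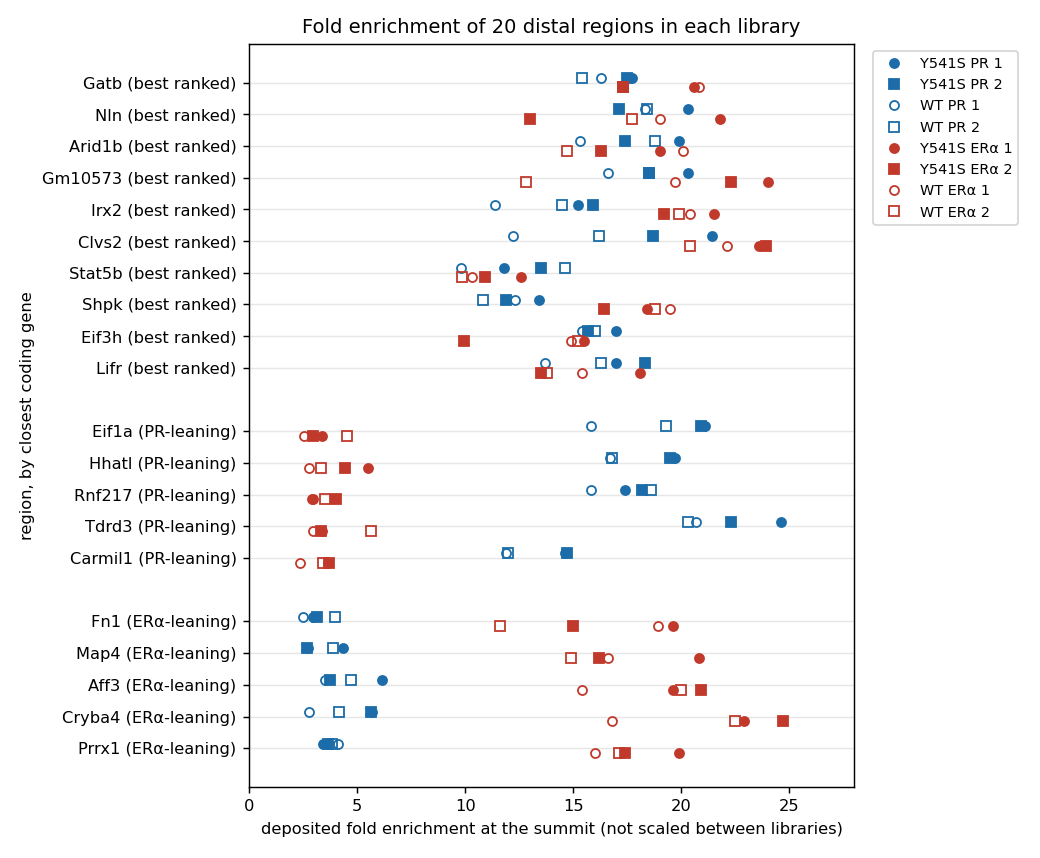
Deposited fold enrichment (x axis, not scaled between libraries) of 20 distal regions named by their closest coding gene: the 10 with the best mean rank, the 5 most PR-leaning and the 5 most ERα-leaning. Each point is a library, blue for PR and red for ERα, filled for Y541S and open for WT. In the PR-leaning rows the blue points lie at 11.9 or above and the red points at 5.65 or below, and in the ERα-leaning rows the blue points lie at 6.16 or below and the red points at 11.6 or above. The leaning rows were chosen by their difference between receptors.

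No distal region was called between Y541S and WT glands for either receptor. In the same limma fit, 0 of 6637 passed an adjusted p under 0.05 for PR or for ERα, against a background of 0.0% in each direction, and 0 passed for the interaction of genotype and receptor (background 0.0% in each direction). The lowest adjusted p was 1.0 for PR and 0.677 for ERα. At an unadjusted p under 0.05, 87 regions were higher and 134 lower in Y541S for PR (background 1.5% and 1.75% of all 8-library regions), and 155 were higher and 314 lower for ERα (background 3.02% and 3.33%). For the interaction at that level, the Y541S-minus-WT difference was larger for PR than for ERα in 168 regions and smaller in 97 (background 1.94% and 1.73%). A fit of log2 deposited folds also called 0. Heights were ranked within a library, so a change shared by all regions of a library cannot be seen, and a region that lost its peak in a genotype is outside the set by its rule. With 2 libraries a group, the missing calls do not show that the genotypes were alike.

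Distal 8-library regions lay near the genes of both receptors. A region was assigned to each autosomal coding gene within 50 kb of its midpoint, so neighbouring genes can share regions. Esr1 had 3 such regions, of which 2 were ERα-leaning and 1 PR-leaning. The ERα-leaning region 20.8 kb from the gene (chr10:4590877-4591510) had folds of 4.33 and 4.2 for PR in Y541S glands and 3.28 and 3.39 for PR in WT glands, against 9.81 and 7.64 for ERα in Y541S glands and 8.26 and 5.34 for ERα in WT glands. Its difference was -2.17 ± 0.36 (SE, limma adjusted p = 0.00176), and the receptors did not overlap. In the other Esr1 regions, both inside this gene of 393.6 kb, the folds of the receptors overlapped. The ERα-leaning one had 3.14 to 6.02 in PR and 4.88 to 12.3 in ERα libraries. The PR-leaning one had 4.02 to 5.48 in PR and 2.84 to 4.38 in ERα libraries.

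Pgr, the gene for PR, had a single region, at chr9:8970080-8971029, 1.94 kb outside the gene. It had folds of 4.8 and 4.46 for PR in Y541S glands and 3.7 and 5.51 for PR in WT glands, against 15.7 and 16.4 for ERα in Y541S glands and 13.6 and 14.0 for ERα in WT glands. The region was ERα-leaning (difference -2.73 ± 0.31, SE, limma adjusted p = 0.00044), with every ERα fold above every PR fold.

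Greb1, a classical estrogen target that encodes an ERα cofactor, had 7 regions within 50 kb, 5 of them inside the gene, and they leaned in both directions. The region at chr12:16790326-16791079 was ERα-leaning, with folds of 8.4 and 9.32 for PR in Y541S glands and 7.91 and 8.68 for PR in WT glands, against 20.3 and 20.5 for ERα in Y541S glands and 20.2 and 19.9 for ERα in WT glands (difference -1.39 ± 0.30, SE, limma adjusted p = 0.00643). Its neighbour at chr12:16788344-16789007 was PR-leaning, with folds of 14.7 and 12.5 for PR in Y541S glands and 7.93 and 8.86 for PR in WT glands, against 4.36 and 3.39 for ERα in Y541S glands and 3.29 and 3.14 for ERα in WT glands (difference 1.61 ± 0.37, SE, limma adjusted p = 0.00932). The order of the receptors thus turned between neighbouring regions of the same gene. The other 5 were 1 PR-leaning, 1 ERα-leaning and 3 uncalled.

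Tnfsf11, which encodes RANKL, had 2 regions, 33.5 and 39.0 kb from the gene, both PR-leaning. The closer one (chr14:78341237-78341938) had folds of 19.9 and 19.2 for PR in Y541S glands and 14.9 and 14.4 for PR in WT glands, against 3.35 and 2.58 for ERα in Y541S glands and 4.13 and 4.34 for ERα in WT glands. Its difference was 3.37 ± 0.33 (SE, limma adjusted p = 0.000295), and the receptors did not overlap. Areg, which encodes the EGF receptor ligand amphiregulin, and Wnt4, which encodes a WNT ligand induced by progesterone, had 0 regions of this kind within 50 kb.

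Over all 20665 autosomal coding genes, 8022 had a distal 8-library region within 50 kb (38.8%), 10.8% had a PR-leaning and 6.42% an ERα-leaning one, and the median number of regions was 0. The 12 gene lists were read against these shares, with counts and no test, because lists and regions were chosen with earlier results known. A long gene has more room for regions, and the median gene length was 17.5 kb over all coding genes.

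Among genes induced by progestins and glucocorticoids, 13 of 19 had a distal region, the median was 2 regions, and all 13 of these had a PR-leaning one, whereas 3 had an ERα-leaning one. The list's median gene length was 13.7 kb, below that of all coding genes. The 13 were Fkbp5, Per1, Zbtb16, Sgk1, Klf9, Errfi1, Nfkbia, Klf15, Tat, Mt2, Mt1, Bcl6 and Pnmt, and most were named after their counts were seen. Zbtb16, which encodes the transcriptional repressor PLZF, had 9 regions, 4 PR-leaning and 1 ERα-leaning. Its highest, at chr9:48723428-48724270 inside the gene, had folds of 17.9 and 20.4 for PR in Y541S glands and 17.2 and 19.8 for PR in WT glands, against 6.56 and 5.04 for ERα in Y541S glands and 8.14 and 6.47 for ERα in WT glands (difference 2.63 ± 0.36, SE, limma adjusted p = 0.000731). The receptors did not overlap there. Errfi1, a feedback inhibitor of the EGF receptor, had 7 regions with 3 PR-leaning, and Klf15, a metabolic zinc finger factor, had 5 with 3 PR-leaning.

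Of the 12 genes of progesterone's paracrine action, 4 had a region, Tnfsf11, Calca, Fgf1 and Lif, and the first 3 had a PR-leaning one. The Calca region (chr7:114646061-114646777), 9.51 kb from this gene of calcitonin, had folds of 24.4 and 20.6 for PR in Y541S glands and 20.8 and 25.2 for PR in WT glands, against 5.78 and 4.79 for ERα in Y541S glands and 5.02 and 3.91 for ERα in WT glands. It had the widest separation in this list apart from the closer Tnfsf11 region (difference 3.29 ± 0.35, SE, limma adjusted p = 0.000363). Fgf1, a fibroblast growth factor gene, had 4 regions with 3 PR-leaning. All 4 lay inside Arhgap26, a longer gene that spans Fgf1, and were also counted for it. The region inside Lif, the gene for leukemia inhibitory factor, was ERα-leaning, with folds of 4.17 to 6.33 in PR and 6.0 to 11.3 in ERα libraries, which overlapped.

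Of 23 estrogen response genes, 10 had a region, 2 a PR-leaning one (Greb1 and Igfbp4) and 4 an ERα-leaning one (Greb1, Pgr, Xbp1 and Rara). Xbp1, a factor of the unfolded protein response, had 3 regions with 1 ERα-leaning, and Celsr2, an adhesion receptor gene, had 2, neither called. The share with any region was 43.5%, and that over all genes 38.8%. The count was 16 without ERα in WT replicate 2 and 6 with a −log10 p of at least 5. The list of nuclear receptor coregulators had 11 of 18 genes with a region, 4 with a PR-leaning and 6 with an ERα-leaning one, and its genes were long (median 96.2 kb). Kat2b, an acetyltransferase gene, had 4 regions with 1 ERα-leaning. Of 20 clock genes 13 had a region, 5 a PR-leaning and 1 an ERα-leaning one. Arntl, the gene of the core activator BMAL, had 5 regions with 1 ERα-leaning, and Per1, a clock repressor, had 4 with 2 PR-leaning. Of 24 cell cycle genes 12 had a region, with 4 PR-leaning and 4 ERα-leaning genes, among them Cdkn1a, the p21 inhibitor gene, with 3 uncalled regions.

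Some marker genes of the cell types in a whole gland had such a region within 50 kb, as did 38.8% of all coding genes. The lists cannot tell which cells a peak near a marker belongs to. Of 16 hormone-sensing luminal markers 11 had a region, 7 a PR-leaning and 2 an ERα-leaning one, led by the keratin gene Krt19 and by Prom2 with 4 regions each. Of 16 luminal progenitor and alveolar markers 8 had a region, with 4 PR-leaning and 3 ERα-leaning genes. Of 16 basal and myoepithelial markers 8 also had a region, and 0 had a PR-leaning or ERα-leaning one. Over all coding genes those shares were 10.8% and 6.42%, and a list of 16 genes is short. The count of basal markers with a region was 2 with regions within 20 kb and 2 when a region went only to its closest gene. The 2 regions of Krt14 lay 33.9 and 43.4 kb away and were also counted for Krt19. Of 15 adipocyte markers 6 had a region, 2 a PR-leaning one (Pparg, the master regulator of fat cells, and Cebpa) and 1 an ERα-leaning one (Cebpa). Of 16 fibroblast and endothelial markers 9 had a region, with 2 PR-leaning and 3 ERα-leaning genes. Of 15 immune markers 6 had a region, with 3 PR-leaning and 0 ERα-leaning genes, and 10 had a region without PR in WT replicate 1. The adipocyte and immune lists, with 6 of 15 genes each, were thus close to the 38.8% of all coding genes with any region. The other cell-type lists lay above it. Neither this nor the difference between the basal list and the others was tested.

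**Figure D5:**
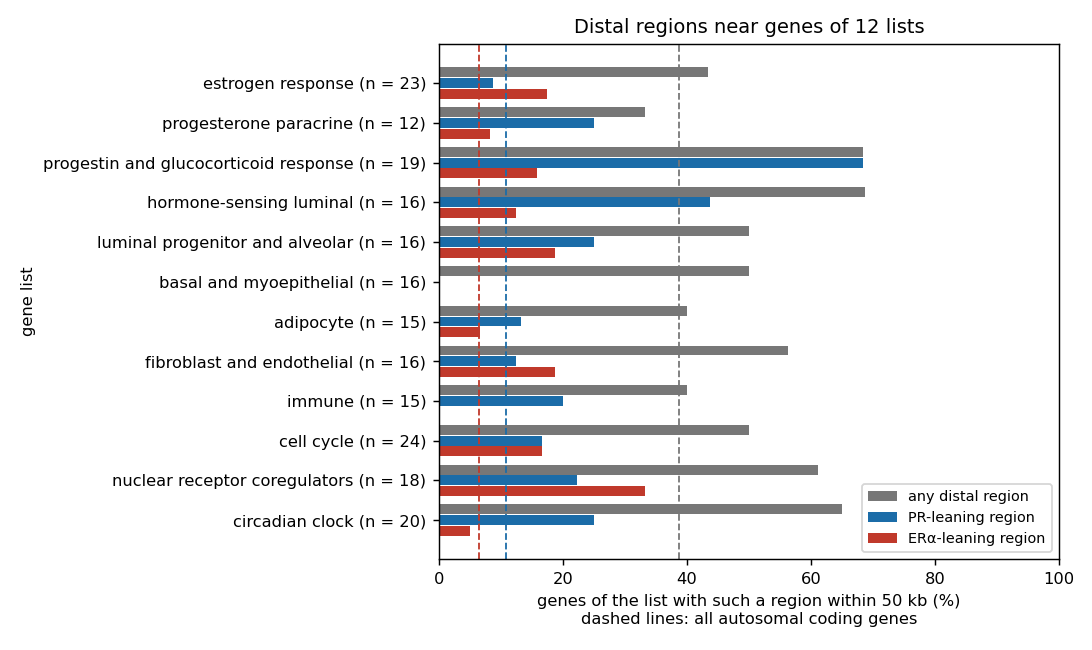
Share of the genes of each of 12 lists (y axis, n is the number of autosomal genes) with a distal 8-library region within 50 kb (grey bars), with a PR-leaning one (blue) and with an ERα-leaning one (red), in percent. Dashed lines mark the shares over all 20665 autosomal coding genes, 38.8%, 10.8% and 6.42%. The progestin and glucocorticoid response bars for any and for PR-leaning regions are equal, at 13 of 19 genes, and the basal list has no coloured bar.

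The genes with most distal 8-library regions were mostly long ones. Rad51b, a DNA repair gene, had 10 over 551.0 kb, of which 0 were PR-leaning and 2 ERα-leaning. Arhgap26, a GTPase-activating protein gene, had 9, with 4 PR-leaning and 2 ERα-leaning, and 4 of the 9 were also counted for Fgf1. Osbpl3, an oxysterol-binding protein gene of 163.0 kb, had 9, with 1 PR-leaning and 3 ERα-leaning, and its highest region had folds of 7.06 to 10.7 in PR and 13.1 to 16 in ERα libraries, without overlap. Zbtb16 also had 9, and Ccdc162, Cradd, Cuedc1 and Nfia had 8 each. Cradd, an adaptor of apoptosis signalling, had 4 ERα-leaning regions and 1 PR-leaning one, and Ccdc162 had 3 PR-leaning and 2 ERα-leaning.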

How the data were processed

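PR and ERα chromatin immunoprecipitation and sequencing was deposited as 1 peak list per library, 8 in all. Per the labels' protocols, 30 µg of chromatin sheared to 300-500 bp met 4 µg of antibody, and input DNA was also made. Per the submitters' processing notes, mm10 was the genome build. Which aligner and peak caller made the lists, and whether input was used, is not given in the sources used here. In the deposited lists, every peak has a score, a fold (ratio) at the summit, a −log10 p, a −log10 q and the summit's offset. These are the authors' values, and they were used only to rank, filter and describe peaks within a list. Read depth is not in the lists. Background coverage was recovered by solving the fold and the Poisson p for a whole-number coverage.

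Regions were merged with Python 3.11.15, pandas 2.3.3, NumPy 2.4.6 and SciPy 1.17.1. Genes and start windows came from RefSeq tables of GRCm38.p6. The planned motif counts in windows around summits were replaced by counts in start windows, since no genome sequence was used here, and exons were not separated. Ranks among 11983 regions, as normal scores, were fitted with limma 3.58.1 (R 4.3.3) over 4 groups, with Benjamini-Hochberg adjustment. Library values were compared with two-sided exact permutation tests. The labels do not say whether the PR and ERα libraries of a replicate share chromatin or animals, and p-values measure the spread between these libraries, which may be technical. Statistics were tested on simulated data.

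The members and the 12 gene lists (214 entries, all matched, 1 by synonym, 210 autosomal) were chosen with earlier results of these data known. Named were the 10 regions with the best mean percentile, the 5 most PR-leaning and 5 most ERα-leaning, those next to the 1 kb limit, up to 4 genes of each list and the 8 genes overall with most regions, as well as Esr1, Greb1, Pgr, Tnfsf11, Areg and Wnt4. The rule would also have named regions called between genotypes. A gene that the rule names is not reported here.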

Additional observations from a re-analysis of the deposited data

Results flagged for a closer look

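The median percentile of the distal regions in PR replicate 1 of WT glands, 79.7, lay further below the other 3 PR libraries (82.7, 83.0 and 82.5) than 4 values usually spread. In all, 14 sets of library values were examined in this way, and chance marks about 1 in 20.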

How the results depend on the processing

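Keeping peaks with a −log10 p of at least 5 left 2944 distal regions, of which 631 were PR-leaning and 450 ERα-leaning, and 4564 genes with a region. The gap between distal and gene-end heights was then 6.09 points, and the cause was not tested. It passed the threshold with the 8 libraries as separate units (two-sided exact permutation p = 0.0234), which the 4 pairs of genotype and replicate could not. The difference in summit distance between and within genotypes became 0.5 bases with those peaks and with the 60000 strongest peaks of each list. Genes with a region numbered 5051 within 20 kb and 4134 when a region went only to its closest gene, since fewer genes are then linked. For the alternatives in this section, the share of leaning calls over all 8-library regions was not computed. Their counts therefore stand without a background.

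Leaving out each library in turn gave 6661 to 9655 distal regions, with 1009 to 2292 PR-leaning, 577 to 1094 ERα-leaning and 8041 to 9726 genes. The height gap ran between -0.448 and 3.83 points, its difference between PR and ERα between 5.94 and 15.2, its difference between Y541S and WT between -4.59 and 2.0, and the summit difference between genotypes between -5.33 and 5.5 bases. The summit difference between receptors ran between 16.1 and 25.6 bases. Each time limma called 0 regions between genotypes. Among the marker and pathway lists, luminal progenitor genes with a region numbered 5 within 20 kb and 4 with a −log10 p of at least 5, and fibroblast and endothelial genes 4 within 20 kb. Cell cycle genes numbered 7 by closest gene and 5 with a −log10 p of at least 5, and basal genes 5 when regions had to lie over 5 kb from gene ends. Immune genes numbered 2 within 20 kb, and adipocyte genes 2 with a −log10 p of at least 5. Without ERα in WT replicate 2, 16 estrogen response genes had a region, and without PR in WT replicate 1, 10 immune markers did. The 10 regions named as leaning, chosen by their large difference, kept their direction and call in all 123 alternative values that could be computed. The largest limma adjusted p was 0.00506. Of these values, the 10 for the limit of 5 kb repeat the main fit and could not differ from it. Of the 10, however, 1 had a value with a −log10 p of at least 5, 2 with the 60000 strongest peaks, 5 with a −log10 q of at least 1.3 and 5 with fixed windows around summits. Leaving out the distal regions with a start window, an alternative chosen after seeing the data, gave a gap of 3.47 points.

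Deviations of same-numbered libraries correlated at 0.12 to 0.208 over the 6 pairs of groups, and background coverage also split by number. The labels do not say what a number marks, and each comparison has only 2 pairs. With the replicate block, 1716 regions were PR-leaning and 967 ERα-leaning. The summit difference between receptors was 20.2 bases, where the exact permutation p was 0.0556 and could not have been smaller under the block. The difference in height gap between PR and ERα had p = 0.0556 by the same exact permutation test.

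The lists limit these results: a region absent from a short list can hold signal under its threshold, heights are ranks, and a group has 2 libraries.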

Other observations

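Distal 8-library regions were partly grouped along the chromosomes. With gaps of at most 10 kb between midpoints they formed 6084 groups, of which 5603 were single regions and 63 held 3 or more, and 15.6% of the regions lay in groups of 2 or more. The group with most regions, 5 over 26.7 kb, lay by Ptpn1 (chr2:167834403-167861127), which encodes the tyrosine phosphatase PTP1B. Groups of 4 included those by Rgs2, a regulator of G protein signalling, by Kdm6b, a histone demethylase gene, by Tgm2, a transglutaminase gene, and by Cuedc1. Of 919 autosomal microRNA hairpins in the RefSeq table, 7 overlapped a distal region: Mir8096, Mir7008, Mir1960, Mir5620, Mir210, Mir7671 and Mir3075. Mir210 encodes a microRNA induced by hypoxia. The region of Mir7671 was ERα-leaning and the other 6 were uncalled.

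The gene with most PR-leaning regions within 50 kb, chosen after the counts were seen, was Hsf2bp with 5 of its 7 regions. The genes with 4 were Ascc1 and its neighbour Ddit4 (of 4 each), Foxo3, Lipc, Mtss1 and Ttll5 (of 5 each), Foxp1 (of 6), Gse1 (of 7), Nup93 and Rin2 (of 8 each), and Arhgap26 and Zbtb16 (of 9 each). Ddit4 encodes an inhibitor of mTOR signalling that glucocorticoids induce, and Foxo3 and Foxp1 encode forkhead factors. The gene with most ERα-leaning regions was Cradd with 4 of 8. The genes with 3 were Rasa3 (of 3), 1600014C23Rik and Kif5c (of 4 each), Phactr1 and Spty2d1 (of 5 each), Exoc2, Ptpn5 and Zcchc14 (of 6 each) and Osbpl3 (of 9). Chromosome 11 held the most distal 8-library regions, 491, and chromosome 19 the fewest, 203.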
